A study of Mus musculus with 96 samples.

Results

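The genes described here are 8 mouse genes of centromere identity and of the kinetochore: Mis18a, Oip5, Hjurp, Cenpa, Cenpc1, Cenpx, Cenpe and Cenpf. They were chosen for their roles, with earlier results of these data known, and each symbol matched 1 of the 55401 gene rows of the deposited table. No value enters the rule itself. The 96 libraries each came from a single oocyte or embryo. All were C57BL/6J and untreated, from females primed with PMSG and hCG and paired with males of the same strain, and the hourly sampling covers the passage from 1 cell to 2 cells. The 8 oocytes come first in time and the 7 morulae, put by the labels at about 84 h, come last. Between them, timed from fertilization, 7 groups of 5 embryos were taken at 0, 2, 8, 10, 12, 14 and 20 h. The 4 h group held 2 embryos, the 6 h group 3, the 24 h group 6, the 18 h group 9 and the 22 h group 10, while 16 h and 36 h held 8 each. Embryos of 0 h to 36 h formed 1 cohort, whereas oocytes and morulae were processed separately, so batch and stage cannot be told apart in 0 h embryos against oocytes and in morulae against 36 h embryos.

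CENP-A is the histone H3 variant that replaces H3 in centromeric nucleosomes and marks the site where the kinetochore forms. New CENP-A is placed by its dedicated chaperone HJURP. The Mis18 complex, which holds MIS18A and MIS18B (encoded by Oip5), licenses the centromere for that step and brings the chaperone there. CENP-C reads the CENP-A nucleosome and links it to the kinetochore, CENP-X is a small histone-fold protein that pairs with CENP-S, CENP-E is a kinesin motor that moves chromosomes along spindle microtubules, and CENP-F is a very large coiled-coil protein of the outer kinetochore. In oocytes and early embryos much of the message present before genome activation was made during oocyte growth, and its translation is governed in part by the length of its poly(A) tail.

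The libraries were made with SMART-Seq v4, which primes on poly(A), so that a change in a transcript's amount and a change in its poly(A) tail cannot be told apart. Levels are in CPM, gene counts scaled to a common library total, and so a share of the library and not an amount per embryo or per cell. Fewer cells expressing a gene and less RNA per cell cannot be told apart either, and the number of cells per embryo differs between stages. Gene totals ran from 10378 to 6795311 counts with a median of 2099222. Morula replicate 4 held the lowest total, with 564538 as the next, and replicate 5 of 10 h stood apart from its group, so levels and tests are given with and without them where they bear on a result. Correlations between genes include both libraries. The level of each gene by stage is described first, and the tests between stages are taken up where the level changes.

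Because the libraries depend on poly(A), a sequence close to the annotated 3′ end of 3 members is shown, chosen for their different courses. Each is 30 bases of the transcript strand, 5′ to 3′, from GENCODE M21 (GRCm38), and stops at the last base of the polyadenylation signal, with a further 23 bases to the annotated end for Hjurp, 21 for Cenpa and 18 for Cenpx. Capitals mark the polyadenylation signal (AATAAA or ATTAAA); the search also covered the element TTTTAT or TTTTAAT, known as a binding site of the cytoplasmic polyadenylation factor CPEB.
Hjurp: ccaagctgctgacagcaaactgctAATAAA
Cenpa: gagaaatAATAAAaAATAAATAAAAATAAA
Cenpx: aatttgttcttacaaagcaacatcAATAAA
The search read the last 100 bases of each transcript on the transcript strand only, where TTTTAT and TTTTAAT can share 1 T at an end. Hjurp, Cenpa and Cenpx held a polyadenylation signal and no TTTTAT or TTTTAAT there, as did Oip5, Cenpc1 and Cenpf. Cenpe held 1 such element and no signal in its last 40 bases. Over 21747 protein-coding genes, 69.3% held a signal in the last 40 bases, 16.5% held TTTTAT or TTTTAAT in the last 100 bases and 12.4% held both. A match describes these letters alone, and no match says nothing of the factor.

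**Figure D1:**
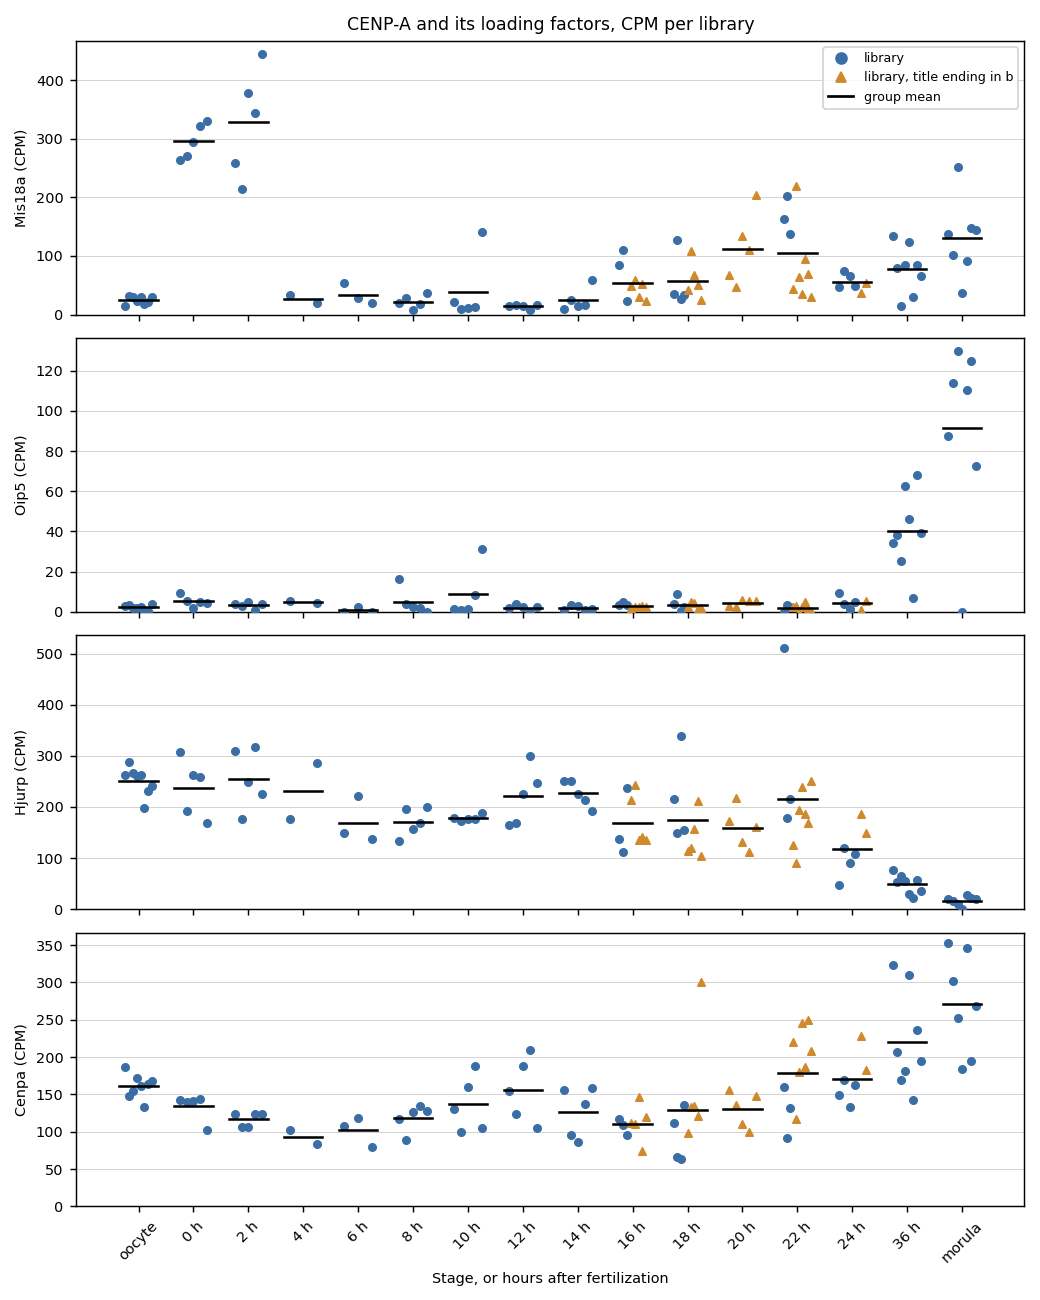
CPM of Mis18a, Oip5, Hjurp and Cenpa in each of the 96 libraries (points; triangles mark titles ending in b) with the group mean (bar), by stage or hour after fertilization, on linear axes from 0. Mis18a stood above 210 CPM in all 0 h and 2 h libraries, Oip5 was high at 36 h and in morulae, Hjurp was lowest in morulae, and the Cenpa means stayed within a 2.94-fold range.

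Mis18a encodes a core subunit of the licensing complex, and its transcript was high in a short window right after fertilization. The 0 h libraries had 264, 271, 294, 322 and 331 CPM, against a lowest of 14.3, a median of 26.5 and a highest of 32.0 CPM in oocytes. Every 0 h embryo was above every oocyte. The log2 difference of 0 h over oocytes was 3.59 ± 0.16 (SE), with an adjusted p of 1.77e-14 in edgeR's quasi-likelihood test. In this comparison 45.7% of the 9556 genes tested passed an adjusted p of 0.05, 23.3% as higher and 22.5% as lower, so a call by itself is common. Of the 7 members tested, 4 were higher and 1 lower at 0 h, and their median log2 difference was 0.33 against -0.02 over all genes.

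The 2 h libraries had 259, 214, 378, 344 and 445 CPM of Mis18a, which overlapped the 0 h range and differed from it by a log2 of 0.08 ± 0.17 (edgeR adjusted p = 0.812). By 4 h the 2 libraries had 33.6 and 19.7 CPM, and at 6 h there were 54.2, 28.2 and 19.5 CPM. The low values held at 8 h, with 19.2, 28.8, 8.28, 18.4 and 36.3 CPM. All embryos of 4 h, 6 h and 8 h were below all embryos of 0 h and 2 h. Because titles at 4 h and at 6 h belong to 1 run of numbers, these hours are less sure than the rest, and 8 h was therefore tested against 2 h, a comparison added after the levels were seen. Relative to 2 h, its log2 difference at 8 h was -3.78 ± 0.33 (edgeR adjusted p = 8.32e-06), while 17.2% of the 9097 genes tested were called, 8.28% as higher and 8.88% as lower.

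At 12 h Mis18a reached its lowest mean, with 14.5, 16.9, 14.7, 8.15 and 16.6 CPM, all under the 0 h values. The log2 difference of 12 h from 0 h was -4.35 ± 0.22 (edgeR adjusted p = 6.92e-10), in a comparison where 39% of the 8211 genes tested were called, 19.7% as higher and 19.4% as lower. The ratio of the highest group mean (2 h, 328 CPM) to the lowest (12 h, 14.2 CPM) was 23.1. Per kilobase of annotated exon, Mis18a had the highest mean level of the 8 genes at 0 h (103.6 CPM per kb) and 2 h (114.6 CPM per kb), and the next to lowest at 12 h (4.95 CPM per kb). These per-kilobase levels divide by all annotated exon bases of a gene, which exceed any single transcript.

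Replicate 5 of 10 h, the library that stood apart, had a median correlation of 0.214 with the others of its group, and it is in no test between 2 groups. Its 141 CPM of Mis18a compares with 9.01 to 20.9 CPM in the other 4 libraries of 10 h. The 10 h mean was 13.3 CPM without it and 38.8 CPM with it. Oocyte markers summed to 24.5 CPM in that library, where the 10 h median was 20817 CPM, and 8 of 12 cumulus and granulosa cell markers detected at 10 h summed to 7174 CPM there. Morula markers, 7 of 8 detected at 10 h, summed to 6719 CPM there and to 35.3 to 180 CPM in the other 4 libraries. Mis18a in that library was still below every 0 h and 2 h embryo.

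A later rise of Mis18a was seen at 16 h. The 16 h libraries ranged between 22.4 and 110.99 CPM with a median of 50.2 CPM, all above the highest 12 h library at 16.9 CPM. The log2 difference of 16 h over 12 h was 1.91 ± 0.40 (edgeR adjusted p = 0.00156), where 34.9% of the 10368 genes tested were called, 18.2% as higher and 16.6% as lower, and 2 of 7 members tested were higher and 0 lower. Without the 16 h titles that end in b, whose meaning is not stated, it was 2.38 (adjusted p = 0.006). At 24 h the libraries ran from 37.6 through a median of 51.5 to 73.8 CPM, again with no overlap with 12 h, and the log2 difference was 1.96 ± 0.28 (edgeR adjusted p = 0.000798).

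Between those hours Mis18a spread widely from embryo to embryo. At 20 h it had 67.3, 47.2, 134.5, 110.4 and 204 CPM, and at 22 h it ran from 30.1 through a median of 81.95 to 219.5 CPM. At 22 h the 3 titles not ending in b had 137.1 to 202 CPM and the 7 ending in b had 30.1 to 219.5 CPM. The 2 sets of titles overlapped.

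Late in the series Mis18a was highest in morulae. They ran from 36.9 through a median of 137.5 to 252 CPM, against 13.9, 82.4 and 133.5 CPM as the lowest, median and highest of the 36 h embryos, and the groups overlapped. The log2 difference of morulae over 36 h was 0.96 ± 0.38 (edgeR adjusted p = 0.0249), with 71.7% of the 11216 genes tested called, 28.2% as higher and 43.5% as lower. The call was lost without morula replicate 3 (0.79, adjusted p = 0.0711), with DESeq2 (0.69, adjusted p = 0.12), under library size alone (0.78, adjusted p = 0.0703), with no filter on low counts (0.83, adjusted p = 0.0592) and in 1 fit of all 96 libraries (0.91, adjusted p = 0.0507). It was 1.17 (adjusted p = 0.00686) without morula replicate 4. That library held 10378 gene counts and 1 count of Mis18a, the 36.9 CPM given above. The lowest morula without it had 92.2 CPM. The 36 h level did not pass against 24 h (log2 0.57 ± 0.36, edgeR adjusted p = 0.198).

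Oip5, the MIS18B subunit that forms the complex with MIS18A, took another course and was near the limit of detection up to 24 h. No group mean from the oocyte to 24 h exceeded 8.76 CPM, and 7 of those libraries had a count of 0, as had morula replicate 4. A count of 0 in the 12 h library allows a level of up to 3.06 CPM (3 counts, counting error only). In the 5 comparisons up to 16 h Oip5 was too low for the filter on low counts, so the edgeR fit of each pair did not test it. With no filter, with DESeq2 and in 1 fit of all 96 libraries it was tested there, and those values are not given. In replicate 5 of 10 h it had 31.5 CPM, and the 10 h mean was 3.08 CPM without that library.

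At 36 h the Oip5 level ran from 7.09 through a median of 38.6 to 68.1 CPM, against 0.945, 4.35 and 9.44 CPM as the lowest, median and highest at 24 h. One 36 h library, replicate 6, lay within the 24 h range, and the other 7 were above it. The log2 difference was 3.28 ± 0.54 (edgeR adjusted p = 0.000122), where 52.3% of the 12636 genes tested were called, 29.1% as higher and 23.2% as lower. In the 6 morulae other than replicate 4, Oip5 ran from 72.4 to 130 CPM. The mean was 106.5 ± 22.2 CPM (SD, n = 6), against 40.1 ± 19.5 CPM at 36 h (SD, n = 8), and all 6 exceeded every 36 h embryo. With replicate 4, at 0 counts where 3 counts equal 110.6 CPM, the log2 difference of morulae over 36 h was 1.41 ± 0.37 (edgeR adjusted p = 0.00154), and without it 1.63 (adjusted p = 0.000184). Of the non-zero Oip5 values 47.7% were not whole numbers, and 172 exon bases of Oip5, or 9.7%, overlap Nusap1 on the opposite strand, so part of its counts may be shared.

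Hjurp, the CENP-A chaperone, had overlapping levels in oocytes, at 0 h and at 12 h, with lower means at 6 h, 8 h and 10 h. Oocytes ran from 197 through a median of 261 to 289 CPM. Embryos of 0 h had 308, 192, 262, 259 and 168 CPM, and those of 12 h had 164, 169, 225, 300 and 247 CPM. These 3 groups overlapped. The log2 differences were -0.06 ± 0.12 for 0 h against oocytes (edgeR adjusted p = 0.723) and -0.10 ± 0.21 for 12 h against 0 h (edgeR adjusted p = 0.716).

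After 0 h the mean of Hjurp was 256 ± 59.1 CPM at 2 h (SD, n = 5), its highest, and 231 ± 76.9 CPM at 4 h (SD, n = 2). It was then 169 ± 46.3 CPM at 6 h (SD, n = 3), 171 ± 27.7 CPM at 8 h (SD, n = 5) and 178 ± 6.02 CPM at 10 h (SD, n = 5). All 10 h embryos, replicate 5 included, had 173 to 189 CPM and were below every oocyte. For 8 h against 2 h the log2 difference was -0.50 ± 0.18 and did not pass (edgeR adjusted p = 0.0714), but it passed under library size alone (-0.73, adjusted p = 0.0168), without 2 h replicate 2 (-0.60, adjusted p = 0.0424) and without 8 h replicate 2 (-0.56, adjusted p = 0.044).

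Hjurp was lower in later embryos and lowest in morulae. The lowest, median and highest levels were 47.8, 113.8 and 186 CPM at 24 h, 21.9, 54.5 and 77.2 CPM at 36 h, and 0, 18.9 and 27.5 CPM in morulae. The log2 difference was -1.15 ± 0.31 for 36 h against 24 h (edgeR adjusted p = 0.00498) and -1.31 ± 0.34 for morulae against 36 h (edgeR adjusted p = 0.00141). The neighbouring groups overlapped in both steps. Morula replicate 4 had no Hjurp count, and the last difference was -1.17 (adjusted p = 0.00217) without it. With library sizes alone as the scaling, the drop at 36 h was -0.82 and did not pass (adjusted p = 0.0524). The ratio of the highest mean (2 h, 256 CPM) to the lowest (morulae, 16.3 CPM) was 15.7.

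The drop of Hjurp at 24 h against 12 h was less firm. Its log2 difference was -0.91 ± 0.30 (edgeR adjusted p = 0.0406), in a comparison where 21.6% of the 11083 genes tested were called, 13.4% as higher and 8.23% as lower. The call was lost when any of 12 h replicates 1, 3, 4 and 5 or 24 h replicates 1, 2, 3 and 4 was left out, with adjusted p up to 0.103, under library size alone (adjusted p = 0.0779) and with no filter on low counts (adjusted p = 0.0548). Without the 24 h titles ending in b it was -1.27 (adjusted p = 0.00284). At 24 h the 4 titles not ending in b had 47.8 to 120 CPM of Hjurp and the 2 ending in b had 149 and 186 CPM.

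Cenpa, the histone variant itself, varied least of the 8 genes. Its lowest group mean was 92.5 CPM at 4 h and its highest was 272 CPM in morulae. In the edgeR fit used throughout, with all libraries of both groups, no comparison between stages called it. Other settings did so at 36 h over 24 h, as given below. No neighbouring pair in the order of its 16 group means was free of overlap, which also held for Oip5, Hjurp and Cenpc1. Oocytes ran from 133.1 through 163 to 187 CPM, and 0 h embryos had 143, 139.98, 141, 144 and 102.8 CPM (log2 -0.25 ± 0.11, edgeR adjusted p = 0.0777). Against 12 h, the 16 h level differed by a log2 of -0.51 ± 0.20 (edgeR adjusted p = 0.0541), which passed without 12 h replicate 5 (adjusted p = 0.0341) and without 16 h replicate 6 (adjusted p = 0.0337).

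At the end of the series Cenpa was at its highest. The lowest, median and highest were 133.5, 166 and 228 CPM at 24 h, 143, 201 and 323 CPM at 36 h, and 184, 269 and 352 CPM in morulae. The lowest in morulae was 5 counts in replicate 4, and without that library it was 194.5 CPM. All 3 ranges overlapped. The log2 differences were 0.41 ± 0.26 for morulae over 36 h (edgeR adjusted p = 0.17) and 0.45 ± 0.21 for 36 h over 24 h (edgeR adjusted p = 0.0792). The first passed without morula replicate 4 (0.59, adjusted p = 0.0153). The second passed under library size alone (0.73, adjusted p = 0.0109), with DESeq2 (0.54, adjusted p = 0.0412), without titles ending in b (0.58, adjusted p = 0.0454), without 24 h replicate 5 (adjusted p = 0.0472) and without 36 h replicate 6 (adjusted p = 0.0327). Between the oocyte and the morula the per-kilobase order of Cenpa and its chaperone turned round. Cenpa had 46.4 CPM per kb in morulae and Hjurp 1.96 CPM per kb, while oocytes had 27.5 CPM per kb of Cenpa and 30.2 CPM per kb of Hjurp.

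**Figure D2:**
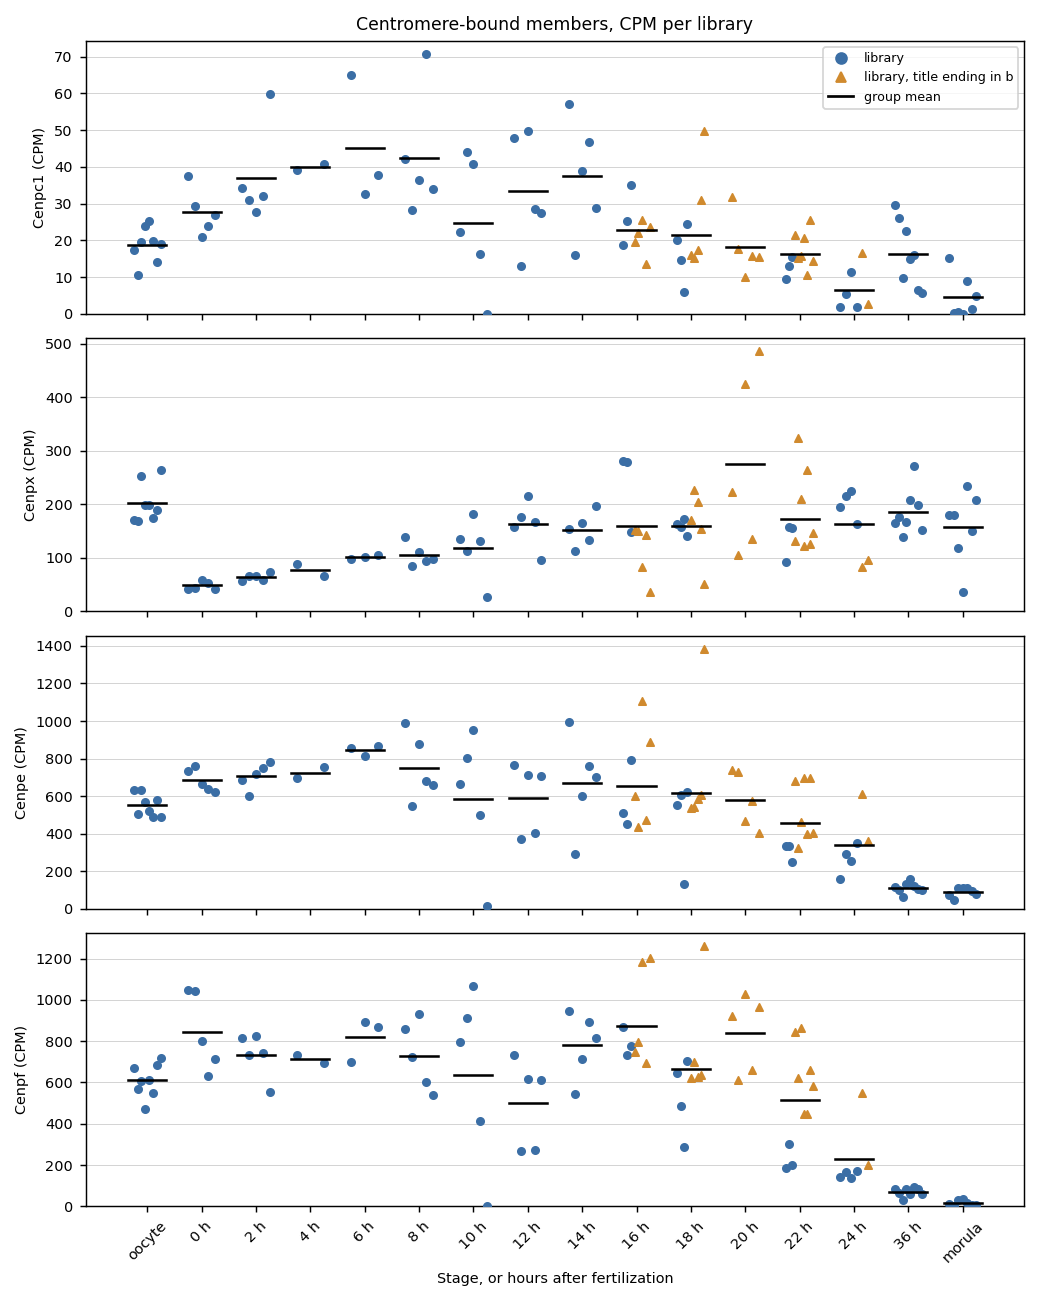
CPM of Cenpc1, Cenpx, Cenpe and Cenpf in each of the 96 libraries (points; triangles mark titles ending in b) with the group mean (bar), by stage or hour after fertilization, on linear axes from 0. Cenpx was lowest at 0 h, and Cenpe and Cenpf were lowest at 36 h and in morulae, apart from 10 h replicate 5, where they had 13.6 and 1.12 CPM.

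Cenpx, the small histone-fold partner of CENP-S, was lower at 0 h, where Mis18a was higher, and higher at 8 h and 12 h, where Mis18a was lower. The 0 h libraries had 41.8, 44.6, 59.2, 54.03 and 42.7 CPM, against 169, 194 and 264 CPM as the lowest, median and highest in oocytes. No 0 h embryo reached the oocyte range. The log2 difference was -2.03 ± 0.15 (edgeR adjusted p = 1.37e-10). Cenpx then had 138.3, 85.4, 110.99, 94.97 and 98.6 CPM at 8 h, against 56.9, 67.04, 65.3, 59.1 and 73.5 CPM at 2 h, with no overlap. It was higher at 8 h by a log2 of 0.77 ± 0.18 (edgeR adjusted p = 0.00823). At 12 h it had 157, 176, 216, 167 and 96.3 CPM, all above the 0 h values, with a log2 difference of 1.74 ± 0.23 (edgeR adjusted p = 1.5e-05).

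From 12 h on, no test called Cenpx, and the group means lay between 153 and 275 CPM. The spread among embryos was wide, with 223, 106.2, 424, 134.6 and 487 CPM at 20 h, where all 5 titles end in b. At 24 h the 4 titles not ending in b had 164 to 225 CPM and the 2 ending in b had 82.4 and 95.2 CPM. Per kilobase of exon Cenpx had the highest mean of the 8 genes in oocytes and from 8 h to the morula, at 188 CPM per kb in oocytes and 147 CPM per kb in morulae.

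Cenpc1, the gene of mouse CENP-C, was low throughout, with group means between 4.49 CPM in morulae and 45.1 CPM at 6 h. Embryos of 0 h had 37.6, 29.4, 20.9, 24.0 and 27.0 CPM, against 10.7, 19.3 and 25.4 CPM as the lowest, median and highest in oocytes. The groups overlapped, and the log2 difference of 0.60 ± 0.22 (edgeR adjusted p = 0.0335) was lost without 0 h replicate 1 (adjusted p = 0.122) or replicate 2 (adjusted p = 0.0596). Those libraries held 2317 and 412 CPM of summed blood and oviduct markers, against 26.9 to 36.0 CPM in the other 0 h libraries. The part of these markers was not tested. At 24 h Cenpc1 ran from 1.93 through 4.00 to 16.5 CPM, against 47.9, 13.2, 49.8, 28.5 and 27.4 CPM at 12 h. Of the 6 embryos at 24 h, 5 were below every 12 h embryo, and the log2 difference was -2.29 ± 0.55 (edgeR adjusted p = 0.00985).

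Cenpc1 was higher at 36 h and lower again in morulae. It ran from 5.57 through 15.4 to 29.6 CPM at 36 h, with a log2 difference over 24 h of 1.38 ± 0.55 (edgeR adjusted p = 0.0431). The call was lost when any of 24 h replicates 1, 2, 4 and 6 or 36 h replicates 1, 2, 3, 4 and 5 was left out, with adjusted p up to 0.096. Morulae ran from 0 through 1.45 to 15.3 CPM, where replicates 2, 3, 4 and 6 held 1, 1, 0 and 2 counts of Cenpc1. The log2 difference from 36 h was -1.52 ± 0.61 (edgeR adjusted p = 0.0291). That call was lost without morula replicate 2, 3, 6 or 7, with adjusted p of 0.0625, 0.0655, 0.0699 and 0.0515 in that order.

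Cenpe, the kinetochore motor, ranked first or second of the 8 genes per kilobase in every group up to 24 h. Embryos of 0 h had 736, 763, 667, 638 and 624 CPM, against 490.5, 546 and 634 CPM as the lowest, median and highest in oocytes. The ranges overlapped at their edges, and the log2 difference was 0.33 ± 0.09 (edgeR adjusted p = 0.00571). At 36 h Cenpe was lower than at 24 h, with a log2 difference of -1.501 ± 0.26 (edgeR adjusted p = 0.000175). The 36 h embryos ran from 64.9 through 110.5 to 159 CPM and the 24 h embryos from 162 through 322 to 612 CPM, with no overlap. Morulae ran from 47.8 through 92.9 to 113.1 CPM, and the log2 difference from 36 h was -0.29 ± 0.26 (edgeR adjusted p = 0.325; DESeq2 -0.59, adjusted p = 0.0182).

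The 24 h level of Cenpe depended on which embryos were counted. Against 12 h its log2 difference was -0.78 ± 0.29 (edgeR adjusted p = 0.0684), and it passed without 24 h replicate 5 (-1.01, adjusted p = 0.0095), without 12 h replicate 2 (-0.92, adjusted p = 0.0474) and without the titles ending in b (-1.14, adjusted p = 0.00378). At 24 h the 4 titles not ending in b averaged 265 ± 79.7 CPM (SD), and the 2 ending in b had 364 and 612 CPM.

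Cenpf, the large outer kinetochore protein, had the widest range after Oip5, with a mean of 875 CPM at 16 h and 16.0 CPM in morulae, a ratio of 54.8. Embryos of 0 h had 1046, 1041, 802, 632 and 713 CPM, against 472, 610 and 719 CPM as the lowest, median and highest in oocytes. The ranges overlapped, and the log2 difference was 0.49 ± 0.12 (edgeR adjusted p = 0.00248). At 12 h it had 734, 266, 619, 273 and 613 CPM, a log2 of -0.77 ± 0.26 from 0 h (edgeR adjusted p = 0.0242). That call was lost without 0 h replicate 1 or 2, or 12 h replicate 2 or 4, with adjusted p of 0.0631 to 0.0684. Replicates 1 and 2 of 0 h are the libraries with 2317 and 412 CPM of summed blood and oviduct markers, whose part was not tested. At 16 h Cenpf was higher than at 12 h by 0.80 ± 0.25 (edgeR adjusted p = 0.0176), a call lost without 12 h replicate 2 (0.65, adjusted p = 0.0537) and without the titles ending in b (0.71, adjusted p = 0.129).

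Cenpf was lower again at 36 h. It ran from 135.99 through 169.8 to 548 CPM at 24 h and from 29.0 through 74.7 to 92.2 CPM at 36 h, with no overlap. The log2 difference of 36 h from 24 h was -1.63 ± 0.32 (edgeR adjusted p = 0.000545), and -1.09 (adjusted p = 0.00291) without the titles ending in b. Morulae ran from 1.57 through 12.1 to 36.9 CPM. The highest was 1 count in morula replicate 4, and without that library it was 31.8 CPM. The log2 difference from 36 h was -2.34 ± 0.44 (edgeR adjusted p = 4.52e-05) with morula replicate 4 and -2.27 (adjusted p = 0.000128) without it. Whether the changes of Cenpf and Cenpe differ was not tested.

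Against 12 h, the 24 h level of Cenpf differed by a log2 of -1.12 ± 0.37 (edgeR adjusted p = 0.0413). The call was lost without any of 12 h replicates 1, 3 and 5 or 24 h replicates 1, 2, 3, 4 and 6, with adjusted p up to 0.119, under library size alone (adjusted p = 0.0662), with no filter on low counts (adjusted p = 0.108) and in the fit of all 96 libraries (adjusted p = 0.0802). Without the titles ending in b it was -1.68 (adjusted p = 0.000459). At 22 h the letter b went with the level of Cenpf. The 7 titles ending in b had 449 to 864 CPM and the 3 others 184 to 300 CPM, with no overlap. Summed markers of blood and oviduct, all 6 detected at 16 h, 18 h, 22 h and 24 h, divided by the same letter at each of these hours. At 16 h they summed to 22.5 to 2017 CPM in titles ending in b and 1.19 to 4.00 CPM in the others. At 18 h the sums were 13.1 to 35.9 CPM against 0 to 8.17 CPM. They summed to 117.04 to 5691 CPM in titles ending in b and 4.13 to 5.20 CPM in the others at 22 h, and to 82.2 and 424 CPM against 2.72 to 16.7 CPM at 24 h. The 6 markers of the 2-cell embryo, all detected, summed to 51.5 and 72.3 CPM in the 24 h titles ending in b and 163 to 1695 CPM in the other 4. These values stand beside the 24 h levels of Hjurp, Cenpx, Cenpe and Cenpf given by title. Those of 16 h also stand beside the 16 h tests of Mis18a and Cenpf. The part of these markers in any of them was not tested. What the letter stands for is not stated.

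**Figure D3:**
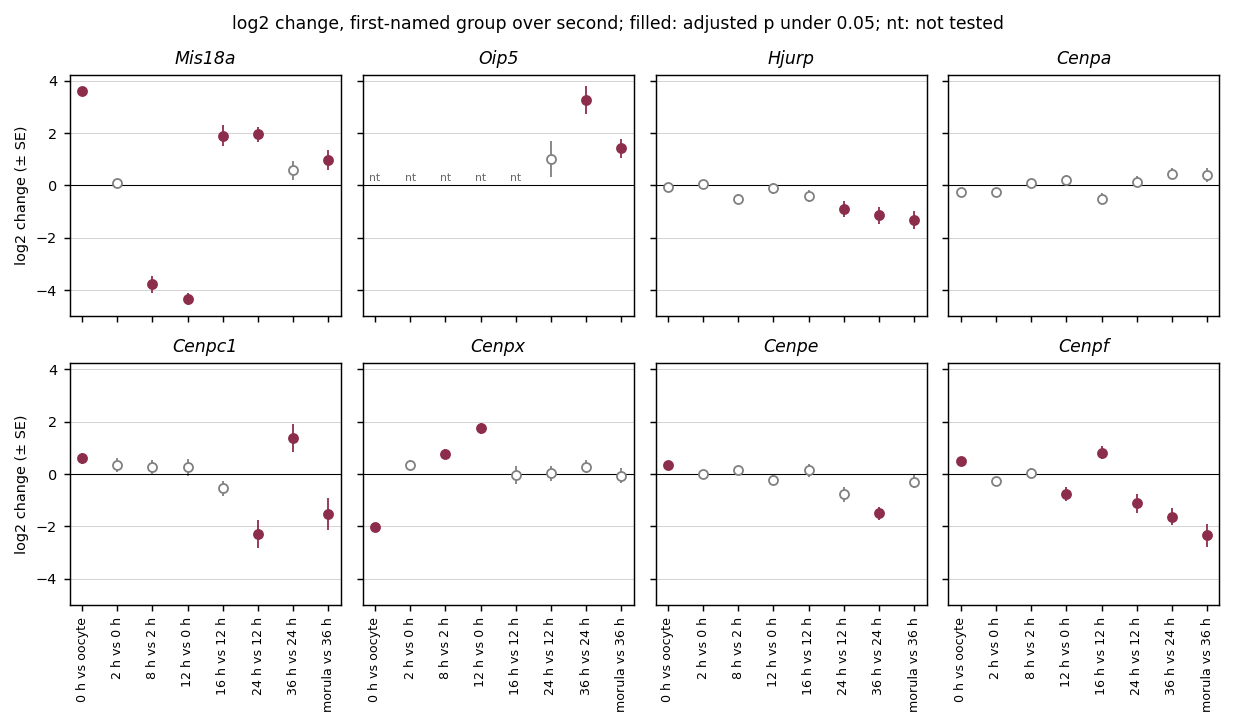
Log2 change ± SE of each member in the 8 comparisons, the first-named group over the second; filled points passed an adjusted p of 0.05 in edgeR and nt marks Oip5 where it was too low to be tested. The log2 change of Mis18a was 3.59 at 0 h over oocytes and -4.35 at 12 h over 0 h, and no Cenpa point is filled.

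Counted by comparison, and read against the share of all genes called that is given above for each, 3 of 7 members passed for 12 h over 0 h, with 1 higher and 2 lower, and 4 of 8 for 24 h over 12 h, with 1 higher and 3 lower. Between 2 h and 8 h 2 of 7 passed, 1 in each direction. Between 0 h and 2 h edgeR called 0 of 7 members, with 0 at an unadjusted p under 0.05 and 0 with DESeq2, where 8.25% of the 8804 genes tested were called, 4.25% as higher and 4% as lower. For 36 h over 24 h 5 of 8 passed, with 2 higher and 3 lower, and for morulae over 36 h 5 of 8, again 2 and 3. The median log2 difference of the members in those steps was 0.36 against 0.05 over all genes, and -0.18 against -0.55 over all genes. Consecutive comparisons share a group of libraries and are not independent.

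Likeness between the members was measured over their 16 group means on the scale of log2(CPM + 1). Across the groups, Pearson's r was 0.965 for Cenpe and Cenpf, 0.936 for Hjurp and Cenpf and 0.899 for Hjurp and Cenpe. Cenpc1 had an r of 0.776 with Hjurp, 0.821 with Cenpe and 0.824 with Cenpf. Oip5 ran against them, with r of -0.869 with Hjurp, -0.880 with Cenpe and -0.861 with Cenpf, and Cenpa did as well, with -0.755, -0.881 and -0.856. Mis18a had an r of 0.338 with Oip5, its partner in the complex, and -0.206 with Hjurp. These values describe 16 means that share libraries and scaling, and the late stages weigh heavily in them. The means include 10 h replicate 5, which had 13.6 CPM of Cenpe and 1.12 CPM of Cenpf, and morula replicate 4. No r was computed without these libraries, here or for the other genes below.

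Among 8209 other genes with a mean of at least 10 CPM, those most like Mis18a were Gm5644 (r = 0.923), Pfdn5 (r = 0.922), a prefoldin subunit, and Yipf1 (r = 0.901), a Golgi membrane protein. Pfdn5 had a mean of 100.95 CPM in oocytes, then of 321 CPM at 0 h and 199 CPM at 2 h, and by 12 h its mean was 85.7 CPM. Those most like Hjurp were Trp53bp1 (0.987), a DNA damage response factor, Tet3 (0.986), the dioxygenase that oxidizes methylated DNA in the zygote, and Usp2 (0.985), a deubiquitinase. Those most like Cenpa were Gabarap (0.926), Polr2e (0.923) and mt-Nd6 (0.922). For the other members the gene most like each was Yy1 for Oip5 (0.954), Nemf for Cenpc1 (0.956), Ckap5 for Cenpe (0.991), Akap9 for Cenpf (0.997) and Gm9828 for Cenpx (0.891). Tet3 averaged 617 CPM in oocytes, 44.1 CPM at 36 h and 13.3 CPM in morulae.

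The start-site region of 4 members is shown because it holds the motif TTTGAA, known as the cell cycle homology region of genes expressed late in the cell cycle, and because these 4 include genes with low and genes with high levels late in the series. Each is 60 bases, 5′ to 3′ on the gene's strand, taken from RefSeq's GRCm38.p6 promoter windows. Capitals mark TTTGAA, or TTCAAA where it lies on the opposite strand.
Hjurp, chr1:88277530-88277589: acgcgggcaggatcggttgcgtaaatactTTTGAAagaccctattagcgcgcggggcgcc
Cenpf, chr1:189688037-189688096: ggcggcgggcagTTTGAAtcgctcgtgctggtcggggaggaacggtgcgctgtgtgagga
Oip5, chr2:119618456-119618515: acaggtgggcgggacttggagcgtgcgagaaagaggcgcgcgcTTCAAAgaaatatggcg
Cenpa, chr5:30666876-30666935: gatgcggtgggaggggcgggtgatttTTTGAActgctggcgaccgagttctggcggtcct
Hjurp and Cenpf were lowest in morulae, whereas Oip5 and Cenpa had their highest means there. Both strands of 300 bases per promoter were searched for TTTGAA and CCAAT, which can share 1 base at an end. Mis18a, Cenpc1, Cenpe and Cenpx held no TTTGAA in this window. CCAAT was found in 7 of the 8 members and not in Mis18a. Over 32851 promoter windows, 17.9% held TTTGAA and 37.4% held CCAAT.

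**Figure D4:**
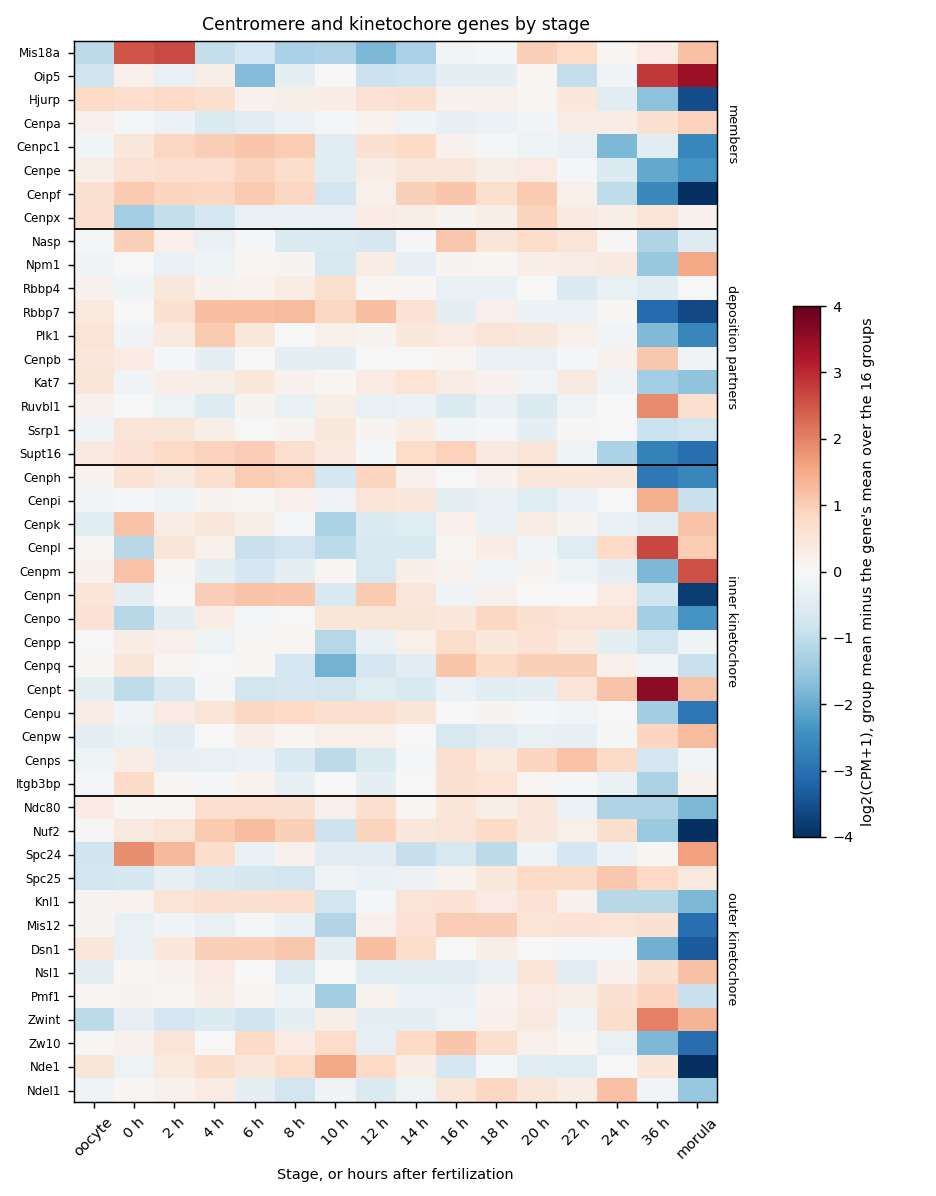
Group mean of log2(CPM + 1) minus the gene's mean over the 16 groups, for the members and 3 lists of other centromere and kinetochore genes (rows), by stage (columns), red higher and blue lower. Mis18a at 0 h and 2 h, Oip5 at 36 h and in morulae, and the low Cenpf and Hjurp in morulae stand out among the members.

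The other genes of CENP-A deposition were taken from a list of 10 that included histone chaperones and Polo-like kinase. At 0 h against oocytes, 2 of 9 tested were higher and 3 lower, with a median log2 of -0.29, where 23.3% of all genes were higher and 22.5% lower. Nasp, a chaperone of histone H3 and CENP-A family proteins, averaged 395 ± 33.3 CPM at 0 h (SD, n = 5) and 193 ± 20.0 CPM in oocytes (SD, n = 8), a log2 difference of 1.05 ± 0.10 (edgeR adjusted p = 1.5e-08). Ssrp1, a subunit of the FACT chaperone, was higher by 0.65 ± 0.16 (edgeR adjusted p = 0.00209). At 2 h Nasp was lower than at 0 h, with a log2 difference of -0.80 ± 0.12 (edgeR adjusted p = 0.00255), and it was the 1 gene called of 9, where 8.25% of all genes were called. In that step Mis18a was not called.

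By 12 h, 1 of 9 deposition partners was higher and 1 lower than at 0 h (19.7% and 19.4% of all genes). The log2 difference of Nasp was -1.58 ± 0.18 (edgeR adjusted p = 4.88e-06), and that of Rbbp7, a histone-binding WD-repeat protein, was 1.18 ± 0.20 (edgeR adjusted p = 0.000159). Both turned at 16 h against 12 h, with log2 differences of 1.71 ± 0.20 for Nasp (edgeR adjusted p = 4.31e-05) and -1.58 ± 0.22 for Rbbp7 (edgeR adjusted p = 7.67e-05), among 2 higher and 1 lower of 9 tested (18.2% and 16.6% of all genes). At 24 h over 12 h, 1 was higher and 2 lower (13.4% and 8.23% of all genes).

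At 36 h against 24 h, 7 of 9 deposition partners tested were lower and 1 higher (23.2% and 29.1% of all genes), with a median log2 of -1.13 against 0.05 over all genes. Rbbp7 averaged 473 ± 133.7 CPM at 36 h (SD, n = 8) and 4162 ± 1452 CPM at 24 h (SD, n = 6), a log2 difference of -3.05 ± 0.26 (edgeR adjusted p = 3.25e-07). Ruvbl1, an ATPase of chromatin remodelling complexes, was the 1 gene higher, by 2.05 ± 0.28 (edgeR adjusted p = 3.06e-05). In morulae against 36 h, 2 were higher and 1 lower (28.2% and 43.5% of all genes). Npm1, the nucleolar histone chaperone, averaged 2080 ± 644 CPM in morulae (SD, n = 7) and 242 ± 55.9 CPM at 36 h (SD, n = 8), a log2 difference of 3.20 ± 0.34 (edgeR adjusted p = 1.59e-08). The 1 gene lower was Ruvbl1, which averaged 36.5 ± 12.0 CPM in morulae and 90.3 ± 29.5 CPM at 36 h, a log2 difference of -1.22 ± 0.29 (edgeR adjusted p = 0.000583).

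The inner kinetochore list held 14 further CENP genes. At 0 h against oocytes 6 of 12 tested were higher and 3 lower (23.3% and 22.5% of all genes), led by Cenpo (log2 -1.67 ± 0.16, edgeR adjusted p = 1.64e-08) and Cenpk (1.65 ± 0.21, edgeR adjusted p = 7.63e-07). At 12 h against 0 h 3 of 11 were higher and 4 lower (19.7% and 19.4% of all genes), with Cenpm at -1.83 ± 0.36 (edgeR adjusted p = 0.00058) and Cenpk at -1.65 ± 0.24 (edgeR adjusted p = 5.35e-05). Cenps, whose protein pairs with CENP-X, was among the 6 higher at 0 h and among the 4 lower at 12 h, while Cenpx was lower at 0 h and higher at 12 h. At 16 h over 12 h Cenps was higher by 1.28 ± 0.30 (edgeR adjusted p = 0.00346) and Cenpq by 1.83 ± 0.30 (edgeR adjusted p = 0.000235), among 3 higher and 5 lower of 13 (18.2% and 16.6% of all genes).

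At 36 h against 24 h, 4 of 13 inner kinetochore genes were higher and 6 lower, where 29.1% and 23.2% of all genes were. Cenph averaged 27.4 ± 8.98 CPM at 36 h (SD, n = 8) and 262 ± 48.9 CPM at 24 h (SD, n = 6), a log2 of -3.16 ± 0.25 (edgeR adjusted p = 1.84e-07). Cenpt, a histone-fold subunit that recruits the outer kinetochore, was higher by 2.96 ± 0.51 (edgeR adjusted p = 0.000176). In morulae against 36 h 6 of 13 were higher and 6 lower, where 71.7% of all genes were called, 28.2% as higher and 43.5% as lower. The log2 difference was 4.68 ± 0.46 for Cenpm (edgeR adjusted p = 4.51e-09) and -3.05 ± 0.43 for Cenpn, which binds the CENP-A nucleosome (edgeR adjusted p = 1.05e-06).

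The outer kinetochore list held 13 genes of the NDC80, MIS12 and KNL1 complexes and their partners. At 0 h against oocytes 3 of 12 tested were higher and 1 lower (23.3% and 22.5% of all genes). Spc24, an NDC80 complex subunit, averaged 52.4 ± 5.53 CPM at 0 h (SD, n = 5) and 7.70 ± 2.19 CPM in oocytes (SD, n = 8), a log2 of 2.79 ± 0.21 (edgeR adjusted p = 1.43e-10). At 12 h against 0 h its log2 difference was -2.19 ± 0.41 (edgeR adjusted p = 0.000392), where 3 of 12 were higher and 1 lower (19.7% and 19.4% of all genes). At 36 h against 24 h 1 of 13 was higher and 4 lower (29.1% and 23.2% of all genes), with Nuf2 at -1.95 ± 0.32 (edgeR adjusted p = 0.000135) and Dsn1 at -1.86 ± 0.28 (edgeR adjusted p = 6.46e-05). In morulae against 36 h 2 were higher and 6 lower, close to the 43.5% of all genes that were lower, led by Nde1 at -4.90 ± 0.49 (edgeR adjusted p = 5.06e-09) and Nuf2 at -4.79 ± 0.74 (edgeR adjusted p = 4.17e-06).

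Summed oocyte markers, all 8 detected in each group, ran from 22201 to 25904 CPM at 0 h and from 14261 to 20517 CPM in oocytes, so every 0 h embryo was above every oocyte. Of these 8 markers 6 were higher at 0 h, with a median log2 difference of 1.565, and the summed markers of the 2-cell embryo were higher there too, at 155 to 266 CPM against 30.1 to 44.4 CPM in oocytes. That sum rested on 2 of the 6 genes, Tcstv1 (152.8 against 31.88 CPM) and Tcstv3 (33.61 against 6.233 CPM). Zscan4c, Zscan4d, Zfp352 and Usp17lc were too low to be tested, with means of at most 1.785 CPM in either group. The part of either marker list in the differences of 0 h from oocytes was not tested. At 36 h the summed 2-cell markers ran from 527 to 2000 CPM. Summed morula markers had a median of 3235 CPM in morulae and 322 CPM at 36 h, and ran from 274 to 395 CPM at 0 h. Of these 8 markers 5 were tested in morulae against 36 h, with 2 higher, 1 lower and a median log2 difference of 0.13. Morula replicate 4 had 590 CPM of morula markers and 2101 CPM of oocyte markers, where the morula medians were 3235 and 129.7 CPM. Of 12 cumulus and granulosa cell markers, 10 were detected at 0 h and in oocytes, with Foxl2 and Amh at 0. They summed to 32.1 to 607 CPM at 0 h and 93.3 to 993 CPM in oocytes. Of the 5 tested, 0 were higher and 2 lower at 0 h (23.3% and 22.5% of all genes), with a median log2 difference of -2.62. The 2 were Cyp11a1 (0.538 against 178.4 CPM) and Akr1c18 (0.298 against 81 CPM). The part of these markers in the differences between these groups was not tested. Mitochondrial transcripts took 6.99% to 16.2% of counts at 36 h and 1.45% to 3.64% at 24 h, and their part was not tested either. With library sizes not scaled by TMM, the median log2 difference of all genes was -0.29 for 12 h over 0 h, 0.41 for 16 h over 12 h and 0.30 for 36 h over 24 h, against -0.02, 0.07 and 0.05 with TMM. Calls split as 1616 higher and 1590 lower at 12 h against 0 h under TMM and as 1005 and 2240 under library size alone, and as 1890 and 1726 against 2887 and 850 at 16 h over 12 h.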

How the data were processed

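Per the labels' protocols, cDNA was made by SMART-Seq v4, which does not mark strand, and sequencing libraries by Nextera XT. Per the submitters' processing notes, Trimmomatic 0.39, STAR and featureCounts were used on mm10; the annotation release and the options of counting are not given in the sources used here. The authors deposited 1 table of expected counts for 55401 genes and 873 repeat families, in which 28.4% of non-zero gene values are not whole (tolerance 1e-06), so reads were shared between places or features. Unlike the whole counts the planned test assumed, these values were rounded before the count model. Repeat families, 8.94% of all counts, were left out of totals. Symbols, coordinates and 3′ ends came from GENCODE M21 (GRCm38): 55141 identifiers matched without version and 260 did not. Promoters came from RefSeq (GRCm38.p6).

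Each comparison was fitted on its own 2 groups with edgeR 4.0.16 under R 4.3.3. Genes were kept by filterByExpr and scaled by TMM, the dispersion was trended, and glmQLFTest was two-sided after a robust glmQLFit. Benjamini-Hochberg adjusted p-values over all genes tested were held to 0.05, and each is from this quasi-likelihood test where DESeq2 1.42.0 is not named. Levels are CPM of rounded counts with TMM factors over all 96 libraries, and likeness used a pseudocount of 1. A count of 0 was given a limit of 3 counts. PCR copies were not told apart by molecular identifiers, so such limits cover counting error only. The code was tested on simulated data with known changes. It recovered 71% (36 h over 24 h) to 100% (0 h over oocytes) of 4-fold changes. Of 2-fold changes it recovered 63% at 0 h over oocytes, 10% at 24 h over 12 h, 8% at 36 h over 24 h and 17% for morulae over 36 h. In those simulated data a 2-fold change often went uncalled. They held fewer changed genes than any comparison called here, so these shares need not hold for the real tests. A result that did not pass does not show an unchanged level. Alternatives were scaling by library size alone, no filter on low counts, DESeq2, 1 fit of all 96 libraries, leaving out each library, the title number as a block, and leaving out titles ending in b. Nothing in the labels ties embryos to separate litters, so p-values measure the spread between these samples. The members, lists and motifs were chosen with earlier results of these data known, and 8 h against 2 h was added after the levels were seen. Of the lists, values are given for up to 2 called genes of largest change per comparison, and Cenps and Ruvbl1 are named also as a partner of a member and as a count of 1. A gene of the lists and the 3′ end of a member are not reported here.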

Additional observations from a re-analysis of the deposited data

Results flagged for a closer look

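Single libraries of 4 to 10 per group were flagged where the gap to the nearest other library exceeded Dixon's 95% limit. Over the 8 members in 14 groups, 15 values were flagged, which belong to 10 libraries, and chance flags about 1 set of a member and a group in 20. Replicate 5 of 10 h is the library with 7174 CPM of cumulus and granulosa cell markers and 6719 CPM of morula markers. In it Mis18a had 141 CPM, Oip5 31.5 CPM and Hjurp 188.7 CPM, each the highest of its group. In replicate 9 of 18 h, Cenpa (300.3 CPM), Cenpe (1386 CPM) and Cenpf (1260 CPM) were high and Cenpx (51.1 CPM) was low.

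The remaining flags concern single genes. Hjurp had 510.7 CPM in replicate 1 of 22 h and 339.1 CPM in replicate 3 of 18 h. Cenpf had 548 CPM in replicate 5 of 24 h, whose title ends in b, and Cenpa had 102.8 CPM in replicate 5 of 0 h. Cenpc1 had 59.9 CPM in replicate 5 of 2 h, and Mis18a had 8.15 CPM in replicate 4 of 12 h. Oip5 had 16.5 CPM in replicate 1 of 8 h and 5.11 CPM in replicate 2 of 16 h.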

How the results depend on the processing

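The calls of Mis18a at 0 h over oocytes, 8 h over 2 h, 12 h over 0 h and 24 h over 12 h, of Cenpx at 0 h and 12 h, of Oip5 at 36 h and in morulae, of Hjurp in morulae, and of Cenpe and Cenpf at 36 h kept their direction and stayed past the threshold in every alternative run for them. Correlations between same-numbered samples ran from -0.172 to 0.528. They cannot settle whether title numbers pair the samples, because a low correlation does not exclude a shared origin. With the title number as a replicate block, calls at 16 h over 12 h were 530 against 3616 and Mis18a stood at 1.85 (adjusted p = 0.0558). With the block, Cenpc1 at 0 h (adjusted p = 0.0857), Cenpf at 16 h (0.65, adjusted p = 0.219) and Hjurp at 36 h (adjusted p = 0.198) were not called, while Mis18a at 36 h over 24 h (0.89, adjusted p = 0.0424), Cenpa at 36 h over 24 h (0.76, adjusted p = 0.0255) and Cenpe at 24 h over 12 h (-1.08, adjusted p = 0.0161) were. In 1 fit of all 96 libraries edgeR called 1601 genes at 0 h over oocytes, 0 at 2 h over 0 h (1280 at an unadjusted p under 0.05; DESeq2 called 1030 in its own fit), 1672 at 12 h over 0 h, 2288 at 16 h over 12 h and 13219 for morulae over 36 h. The same fit called 10 genes higher and 99 lower at 8 h over 2 h, against 753 and 808. In that fit Cenpc1, Cenpe and Cenpf at 0 h had adjusted p of 0.537, 0.647 and 0.552, Cenpf at 12 h 0.328 and at 16 h 0.207, and Cenpx at 8 h 0.38. Without titles ending in b 1785 genes were called at 16 h over 12 h and 4068 at 24 h over 12 h. For morulae over 36 h 16826 were called with no filter and 12363 with DESeq2. Leaving out each library gave 352 to 996 calls at 2 h over 0 h and 967 to 1955 at 8 h over 2 h. With no filter Cenpc1 at 0 h had an adjusted p of 0.0663 and at 36 h 0.0608.

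Log2 differences that turned in sign belonged to members not called. Under library size alone these were Cenpa (-0.0902) and Cenpc1 (-0.0584) at 12 h over 0 h, Cenpx (0.36) at 16 h over 12 h, and Cenpa (-0.17), Cenpe (-0.11) and Cenpf (-0.20) at 8 h over 2 h. At 2 h over 0 h Cenpe was 0.0247 with no filter and 0.00157 in the fit of all libraries. Without titles ending in b, Cenpx was 0.57 at 16 h over 12 h and -0.0445 at 36 h over 24 h, and Cenpa -0.0136 at 24 h over 12 h. With the block, Cenpx was 0.68 and Cenpe -0.0749 at 16 h over 12 h, and Cenpx -0.0836 at 36 h over 24 h. Leaving out each library gave ranges of -0.16 to 0.0582 for Hjurp at 0 h over oocytes; -0.0776 to 0.0329 for Cenpe, -0.0534 to 0.15 for Hjurp and -0.0786 to 0.18 for Mis18a at 2 h over 0 h; -0.23 to 0.00887 for Hjurp at 12 h over 0 h; -0.21 to 0.17 for Cenpx and -0.00532 to 0.26 for Cenpe at 16 h over 12 h; -0.13 to 0.17 for Cenpx at 24 h over 12 h; -0.14 to 0.13 for Cenpx in morulae over 36 h; and -0.0339 to 0.15 for Cenpf at 8 h over 2 h. The causes were not tested. Depth limits Oip5, whose levels lay within a few counts in many libraries, and morula replicate 4, where 3 counts equal 110.6 CPM. It also limits Cenpc1 in morulae, with at most 2 counts in replicates 2, 3, 4 and 6.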
